A study of Rattus norvegicus with 7 samples.

Results

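Twist1, Twist2, Snai1, Snai2, Zeb1, Zeb2, Prrx1 and Runx1 encode transcription factors of mesenchymal cells, the connective-tissue-forming cells to which synovial fibroblasts belong. The 8 genes were taken by symbol from a table of 20660 rat genes, and each was found on 1 line. They were measured by RNA sequencing in synovium, the soft tissue lining the joint, of male SD rats aged 3 months. In 4 rats the right knee had received MIA at 10 mg/kg in 0.1 mL (MIA 1 to MIA 4), with tissue taken 4 weeks later; the protocol names sodium pentobarbital given into the abdomen beforehand, and 3 rats had no treatment (control 2 to control 4). MIA is not spelled out in the labels; in knee models it usually stands for monosodium iodoacetate, which blocks glycolysis in cartilage cells. The controls were given no sham injection that the labels mention, so the injection and the agent cannot be told apart. The same holds for the pentobarbital if the untreated rats had none. Each library came from 1 rat.

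Twist1 and Twist2 are basic helix-loop-helix (bHLH) proteins that bind E-boxes together with E proteins and are opposed by Id proteins. Snai1, Snai2, Zeb1 and Zeb2 are zinc finger repressors that recognise an E-box core and silence epithelial genes such as the E-cadherin gene Cdh1 when cells take on a mesenchymal state. Prrx1 is a homeodomain protein of limb mesenchyme and of fibroblasts, and Runx1 is a Runt-domain protein of blood-forming cells that mesenchymal and skeletal precursors also express.

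Because Snail and Zeb proteins recognise a form of E-box, the letters CACCTG or CAGGTG (the same site read on either strand) were looked for in the 250 bases before the gene starts in RefSeq (build GRCr8). The table held 7 of the 8 genes, all except Snai2, and the letters were present in 2 of them, Snai1 and Zeb1. Of all 33469 rat promoter windows of this length, 15.9% held them. The 2 windows are shown because they belong to genes whose own proteins recognise such a site; capitals mark it. That of Snai1 lies at chr3:176667226-176667475 on the plus strand, and that of Zeb1 at chr17:56810654-56810903 on the minus strand.
Snai1: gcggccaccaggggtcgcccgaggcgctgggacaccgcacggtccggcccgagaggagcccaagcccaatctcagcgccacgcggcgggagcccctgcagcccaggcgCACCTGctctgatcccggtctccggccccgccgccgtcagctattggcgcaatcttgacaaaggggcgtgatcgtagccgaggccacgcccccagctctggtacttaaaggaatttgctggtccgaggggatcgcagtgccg
Zeb1: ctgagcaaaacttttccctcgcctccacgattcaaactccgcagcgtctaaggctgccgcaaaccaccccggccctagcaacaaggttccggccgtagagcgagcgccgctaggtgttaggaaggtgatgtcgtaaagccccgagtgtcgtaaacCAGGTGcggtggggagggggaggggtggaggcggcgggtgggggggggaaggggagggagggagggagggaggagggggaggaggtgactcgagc
The match begins 142 bases before the start of Snai1 and 95 bases before that of Zeb1. A match is a run of letters and says nothing of binding.

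The libraries held 13870822 to 16261089 counts. Skeletal muscle transcripts differed between the groups: 16 muscle marker genes took 12.8% to 15.4% of the counts in controls and 0.0416% to 4.89% in MIA libraries. All 16 were lower in every MIA library than in any control, as were 24.4% of all tested genes, although 2 passed the test. For the tissue itself, 11 of 14 fibroblast markers rose and 1 fell, Gsn, with a median log2 change of 1.21. None was at 0 in either group. Over all tested genes 21.3% rose and 19.6% fell, the shares to set beside the called muscle and fibroblast markers. Levels below are CPM, counts relative to the library size after TMM factors, which balance the bulk of the genes between libraries. The summed CPM of the 14 fibroblast markers overlapped between the groups, at 8436.1 to 13623.2 in controls and 10553.4 to 15847.4 in MIA rats. Gsn alone was at 5276 to 9081 CPM in controls and at 471.8 to 1691 CPM in MIA rats. Gene levels are compared with each other in FPKM, which divides by gene length and by the library total. In bulk tissue, more cells of a type and more RNA per cell cannot be told apart.

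Of the 8 factors, 6 were higher in MIA synovium at an adjusted p under 0.05 and none was lower. With edgeR's quasi-likelihood test and Benjamini-Hochberg adjustment over 14054 genes, Snai1, Runx1, Snai2, Prrx1, Twist1 and Zeb1 were called, 6 of 8, where 40.9% of all tested genes were called, 21.3% higher and 19.6% lower. At an unadjusted p under 0.05 there were 7 higher and 0 lower; DESeq2 called 7 higher and limma-voom 5, and both called 0 lower. The groups did not overlap in CPM for 7 of the 8, with MIA above control, as was the case for 24.8% of all tested genes. The median log2 change of the 8 was 1.34, against 0.07 for all tested genes. These calls are relative to the bulk of the transcripts. With library totals all 8 were called higher, as were 37.4% of all genes. Scaled instead on the 14 fibroblast markers, 0 of the 8 were called in edgeR, also at an unadjusted p under 0.05, where 3.64% of all genes were called higher and 67.4% lower, and Twist1, Twist2, Zeb1 and Zeb2 had negative changes. The share of calls that were higher was 52.1% with TMM factors, 78.1% with library totals, 5.12% with fibroblast scaling and 75.5% in limma on log2(FPKM + 1).

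**Figure D1:**
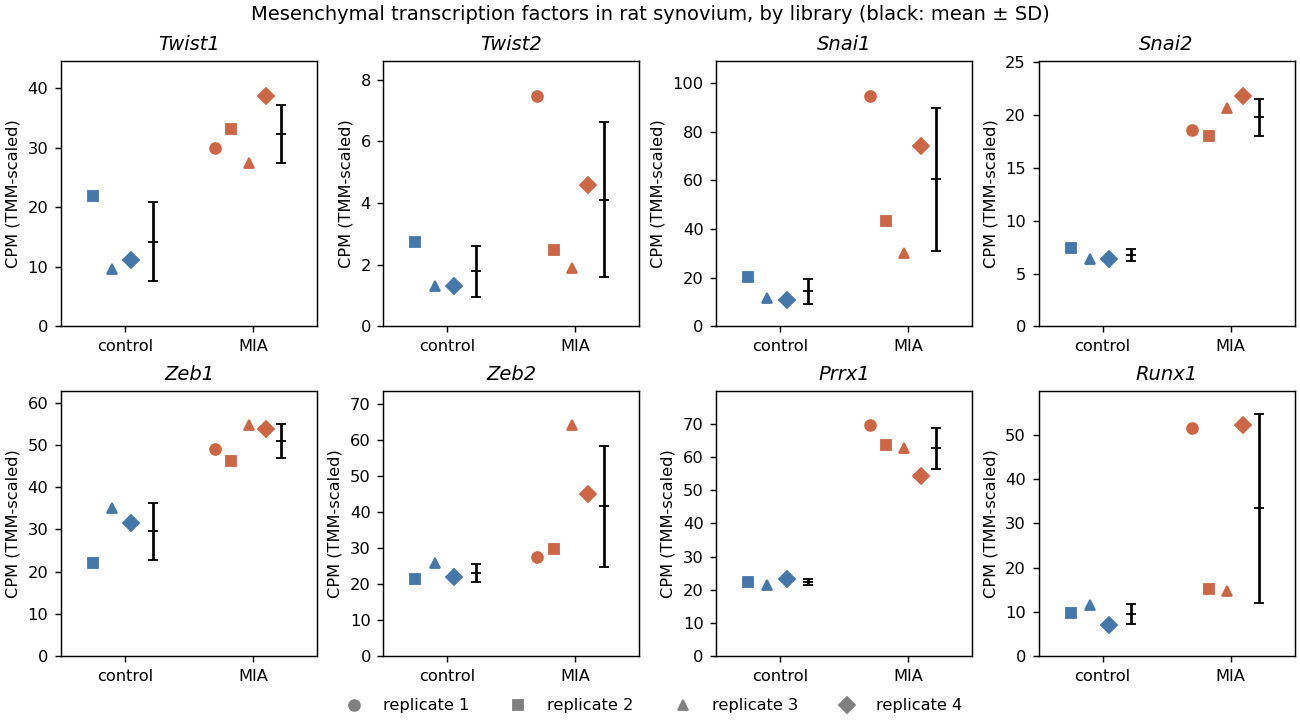
CPM of each factor in every library (vertical axis, from 0, a separate range for each gene), with control libraries in blue, MIA libraries in orange, the shape giving the replicate number, and black bars the mean ± SD (n = 3 and n = 4). Prrx1 and Snai2 sit in tight clusters of MIA above control, whereas Twist2 overlaps and Snai1, Zeb2 and Runx1 are spread among MIA rats; with fibroblast scaling Twist1, Twist2, Zeb1 and Zeb2 change sign.

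Prrx1, the limb mesenchyme homeodomain factor, had the highest FPKM of the 8 in both groups and was the most even among controls (highest-to-lowest ratio 1.09). It was at 22.2, 21.3 and 23.3 CPM in control 2 to 4 and at 69.5, 63.6, 62.8 and 54.4 CPM in MIA 1 to 4. All MIA rats lay far above all controls, and MIA 4 was the lowest of them. Prrx1 (ENSRNOG00000003720) rose 2.81-fold, a log2 change of 1.49 ± 0.15 (SE; edgeR adjusted p = 0.000902), and stayed called without any 1 library (adjusted p up to 0.00789). Per length it was at 21.7 ± 1.51 FPKM (SD, n = 3) in controls and 82.5 ± 6.75 FPKM (SD, n = 4) in MIA rats, on a gene model that the deposited FPKM put at 862 bases. Scaled on fibroblast markers its log2 change was 0.10 ± 0.24 (adjusted p = 0.727). Its family relative Prrx2, also a homeodomain factor of limb mesenchyme, rose 3.17-fold (log2 change 1.66 ± 0.32, adjusted p = 0.00504; 0.306 with fibroblast scaling and 0.0516 with the mean log2 CPM of the muscle markers as a covariate, called the muscle covariate here).

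Both Snail genes rose, Snai1 with large and Snai2 with small differences between MIA rats. Snai1, a repressor of Cdh1, was at 20.5, 11.8 and 11.1 CPM in control 2 to 4 and at 94.8, 43.2, 30.1 and 74.0 CPM in MIA 1 to 4. MIA 1 and MIA 4 were the high ones, and even MIA 3, the lowest, was above every control. Snai1 (ENSRNOG00000009594) was 4.18-fold higher (log2 change 2.06 ± 0.43, adjusted p = 0.00735), the largest fold of the 8. Snai2, also named Slug, was at 7.43, 6.43 and 6.39 CPM in controls and at 18.6, 18.1, 20.7 and 21.9 CPM in MIA 1 to 4. Its highest MIA library was 1.21 times its lowest, against 3.15 times for Snai1. Snai2 (ENSRNOG00000047699) was 2.93-fold higher (log2 change 1.55 ± 0.18, adjusted p = 0.00109). Both stayed called without any 1 library, Snai1 with log2 changes from 1.76 to 2.40 and Snai2 from 1.51 to 1.62. Scaled on fibroblast markers, the log2 changes were 0.67 ± 0.35 for Snai1 (adjusted p = 0.113) and 0.18 ± 0.27 for Snai2 (adjusted p = 0.563). The third Snail family gene, Snai3, went the other way: it fell from 58, 255 and 91 counts in control 2 to 4 to 3, 8, 31 and 18 counts in MIA 1 to 4 (log2 change −3.74 ± 0.78, adjusted p = 0.00701). The muscle markers were lower in the same libraries, and with their level as a covariate the log2 change of Snai3 was −3.07 ± 1.12 (adjusted p = 0.0851). That covariate largely follows the groups, at 12.58 to 12.88 in controls and 9.665, 3.882, 10.7 and 9.974 in MIA 1 to 4. A call lost with it can therefore reflect a wider SE.

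Of the genes for the Twist proteins, which pattern limb and skull mesenchyme, only Twist1 passed the test, and the difference between the genes is not shown. Twist1 was at 21.9, 9.68 and 11.1 CPM in control 2 to 4 and at 29.9, 33.1, 27.4 and 38.8 CPM in MIA 1 to 4. Control 2 stood above the other controls, but below every MIA rat. Twist1 (ENSRNOG00000011101) was 2.27-fold higher (log2 change 1.18 ± 0.30, adjusted p = 0.0153), with a log2 change of −0.16 ± 0.25 when scaled on fibroblast markers (adjusted p = 0.577). Its call ended without control 3 (adjusted p = 0.0601), without control 4 (0.07) and with the muscle markers' level in the model (0.0946). Twist2 (ENSRNOG00000020355), known also as Dermo1, was the scarcest of the factors, with 15 to 39 counts in controls and 35 to 125 counts in MIA rats. It was at 2.73, 1.32 and 1.31 CPM in controls and at 7.49, 2.49, 1.90 and 4.59 CPM in MIA 1 to 4. MIA 2 and MIA 3 were below control 2, so the groups overlapped. Its log2 change of 1.19 ± 0.56 was of the size of that of Twist1 but did not pass (adjusted p = 0.122). Twist2 was called only in edgeR with library totals (adjusted p = 0.0469) and in limma on log2(FPKM + 1) (0.0481) or log2(FPKM + 0.1) (0.0395). FPKM also refer to library totals. With fibroblast scaling its log2 change was −0.18 ± 0.52.

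The genes for the Zeb proteins, large zinc finger repressors, had the smallest changes. Zeb1 was at 22.0, 35.1 and 31.5 CPM in control 2 to 4 and at 49.0, 46.2, 54.6 and 53.9 CPM in MIA 1 to 4. The MIA rats were close together, and control 2 was the lowest of the controls, the reverse of its place for Twist1 and Snai1. Zeb1 (ENSRNOG00000017863) was 1.73-fold higher (log2 change 0.79 ± 0.19, adjusted p = 0.012) and stayed called without any 1 library, but its log2 change was −0.63 ± 0.31 with fibroblast scaling (adjusted p = 0.0929). Zeb2 was at 21.3, 25.8 and 21.9 CPM in controls and at 27.4, 29.7, 64.0 and 45.0 CPM in MIA 1 to 4. MIA 3 and MIA 4 were high, while MIA 1 and MIA 2 lay just above the controls. The log2 change of Zeb2 (ENSRNOG00000004677) was 0.85 ± 0.30, which just missed the threshold (adjusted p = 0.0529), and −0.48 ± 0.42 with fibroblast scaling. Among other settings, it was called with library totals (0.0151), with DESeq2 (0.0474) and without MIA 1 (0.0392) or MIA 2 (0.031). Its log2 change was 0.55 without MIA 3. Zeb2 is also expressed in macrophages and other immune cells. The summed CPM of 12 macrophage markers, none at 0 in either group, was 1017.1 to 1311.9 in controls and 4250.0, 6028.0, 4082.4 and 2047.1 in MIA 1 to 4, so MIA 4, with the second-highest Zeb2, had the least. MIA 3, with the highest Zeb2, held 581.9 CPM of 7 neutrophil markers against 25.0 to 52.6 CPM in the other MIA rats; the part of these cells in the Zeb2 level was not tested.

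Runx1, the Runt-domain factor, rose on average but split the MIA rats. It was at 9.67, 11.6 and 7.13 CPM in control 2 to 4 and at 51.6, 15.3, 14.7 and 52.1 CPM in MIA 1 to 4. MIA 1 and MIA 4 were several times above every control, and MIA 2 and MIA 3 only a little above the highest control. Runx1 (ENSRNOG00000001704) was 3.53-fold higher (log2 change 1.82 ± 0.53, adjusted p = 0.026; 0.38 ± 0.49 and adjusted p = 0.502 with fibroblast scaling). The call ended without control 2, 3 or 4 (adjusted p = 0.0745, 0.0642 and 0.102), without MIA 1 (0.0604) or MIA 4 (0.0539) and with limma-voom (0.0852). Immune cell markers had another order among these rats: macrophage markers were lowest in MIA 4 (2047.1 CPM), and 9 T and NK cell markers summed to 116.0, 223.9, 153.6 and 73.5 CPM in MIA 1 to 4. Of these sums, Cd4 alone made up 94.1, 202.8, 68.0 and 58.7 CPM. Each of the other T and NK cell markers was highest in MIA 3, such as Cd3e at 1.92, 0.89, 8.77 and 1.58 CPM in MIA 1 to 4. Spi1, a transcription factor of myeloid cells that works with Runx1, was higher in MIA 2 (65.4 CPM) and MIA 3 (65.8 CPM) than in MIA 1 (31.4 CPM) and MIA 4 (24.4 CPM). Its log2 change was 1.82 ± 0.38 (adjusted p = 0.00738; 0.32 with fibroblast scaling and 0.0623 with the muscle covariate). The part of immune cells in the Runx1 level was not tested.

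**Figure D2:**
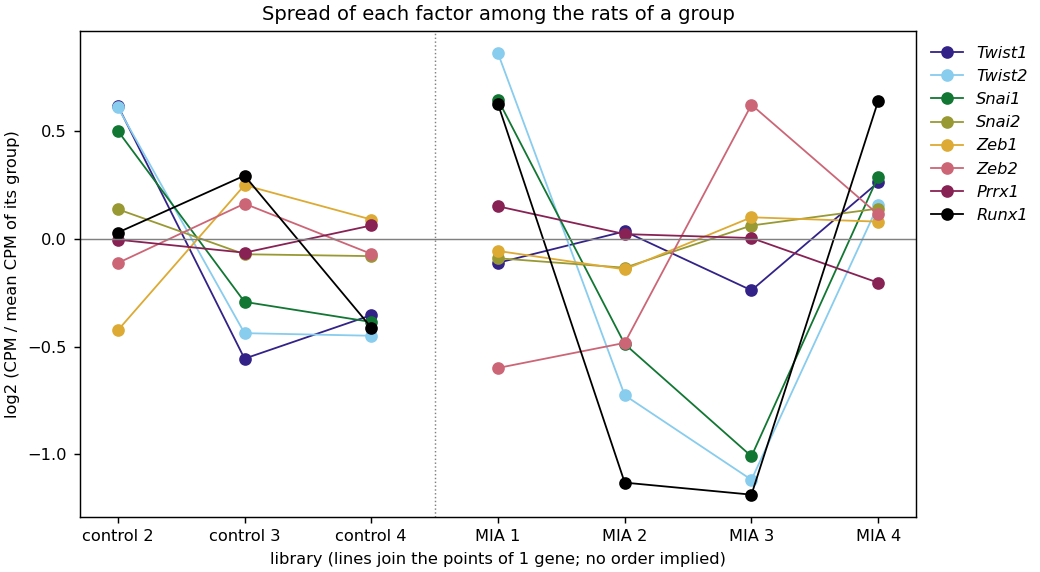
Each factor's CPM divided by the mean of its own group, on a log2 scale (vertical axis), in the 3 control and 4 MIA libraries; lines join the points of 1 gene. Snai1, Twist2 and Runx1 are high in MIA 1 and MIA 4 and low in MIA 2 and MIA 3, Zeb2 is highest in MIA 3, and Prrx1, Snai2 and Zeb1 stay near 0 in the MIA rats.

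Among MIA rats the factors thus fell into different patterns. Snai1, Twist2 and Runx1 each had MIA 1 and MIA 4 as their 2 highest libraries, with highest-to-lowest ratios of 3.15, 3.95 and 3.55. Zeb2 had a ratio of 2.33 and its peak in MIA 3. Twist1, Snai2, Zeb1 and Prrx1 had ratios of 1.42, 1.21, 1.18 and 1.28. In controls the ratio was highest for Twist1 (2.26), Twist2 (2.09) and Snai1 (1.85), and control 2 was the high library in each.

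Per length, Prrx1 came first in both groups, and the order below it was partly unresolved. In controls Twist1 (7.58 ± 4.07 FPKM), Zeb1 (7.23 ± 1.32 FPKM) and Snai1 (6.72 ± 2.91 FPKM) had overlapping ranges, followed by Zeb2 (4.44 ± 0.41 FPKM), Runx1 (3.52 ± 0.89 FPKM) and Snai2 (2.90 ± 0.45 FPKM), whose neighbours' ranges also overlapped. Twist2 was last at 1.29 ± 0.68 FPKM, with no overlap with Snai2. In MIA rats Snai1 stood second on average at 37.0 ± 16.5 FPKM, above Twist1 (22.9 ± 3.71 FPKM) in 3 of 4 libraries. Zeb1 (17.1 ± 2.32 FPKM) and Runx1 (16.6 ± 10.3 FPKM) exceeded each other in 2 libraries each. Snai2 (11.5 ± 1.63 FPKM) and Zeb2 (11.1 ± 5.20 FPKM) overlapped, and Twist2 was last on average (3.88 ± 2.19 FPKM). FPKM refer to library totals and not to TMM-scaled sizes, and over all genes the median change was 0.36 in limma on log2(FPKM + 1) against 0.07 with TMM factors.

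Ratios of related genes within a library do not depend on scaling. The groups overlapped for all 5 ratios, and the test used could not reach the threshold with so few libraries. The log2 count ratio of Twist1 to Twist2 was 2.96 ± 0.11 in controls (SD, n = 3) and 3.15 ± 0.84 in MIA rats (SD, n = 4; exact two-sided permutation p = 0.743, adjusted over 5 ratios 0.914). It was between 2.83 and 3.05 in all controls and ran from 2.0 in MIA 1 to 3.83 in MIA 3; this difference in spread was not tested. Snai1 to Snai2 was 1.04 ± 0.36 and 1.47 ± 0.77 (exact p = 0.457), and Zeb1 to Zeb2 was 0.34 ± 0.25 and 0.38 ± 0.47 (exact p = 0.914). Prrx1 to Prrx2 was 0.79 ± 0.63 and 0.54 ± 0.35 (exact p = 0.629). Runx1 to Runx2, a regulator of bone formation, was 1.27 ± 0.35 and 0.61 ± 1.1 (exact p = 0.457), with values of 1.24 and 1.80 in MIA 1 and MIA 4 and of 0.01 and −0.59 in MIA 2 and MIA 3. The most extreme of 35 assignments of the labels has a tail of 0.0286, which the two-sided test doubles to above the threshold of 0.05. No ratio could therefore pass, and a p above the threshold does not show that the ratios were the same.

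**Figure D3:**
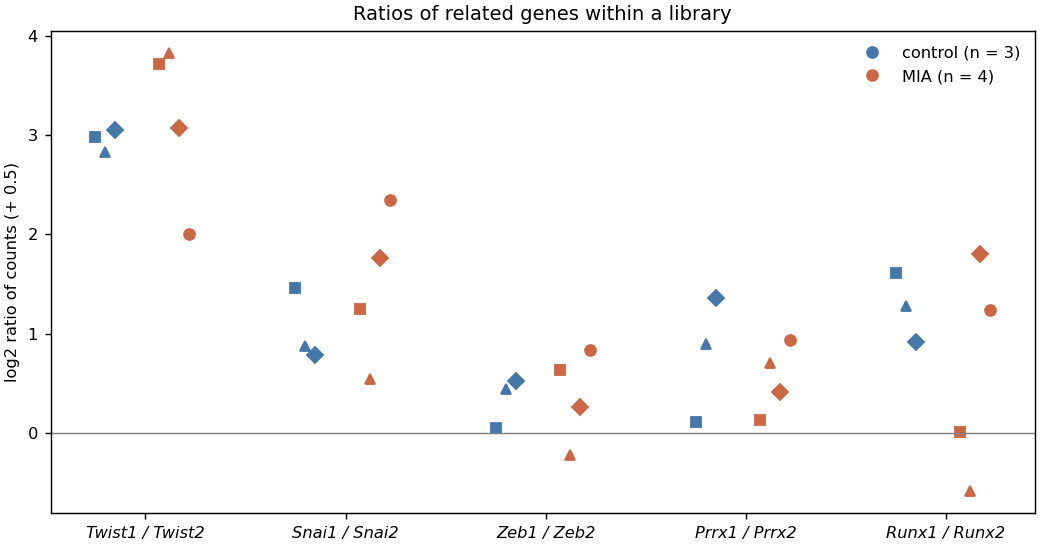
Log2 ratio of the counts of 2 related genes (each count + 0.5) in every library (vertical axis), with controls in blue (n = 3) and MIA rats in orange (n = 4); circles, squares, triangles and diamonds are replicates 1 to 4. The groups overlap for all 5 ratios, and the MIA rats are wider apart than the controls for every ratio except Prrx1 to Prrx2.

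The family relatives moved in both directions. Of 7 tested, 3 rose and 2 fell. Over all tested genes 21.3% rose and 19.6% fell, the shares to set beside this count and those of the lists below. Runx2 rose in every MIA rat, from 3.15 to 4.75 CPM in controls to 14.99 to 22.1 CPM (log2 change 2.25 ± 0.26, adjusted p = 0.00113; 0.0683 with fibroblast scaling). Runx3, a Runt-domain factor of T cells among others, went from 3, 5 and 0 counts in control 2 to 4 to 90, 18, 87 and 29 counts in MIA 1 to 4 (log2 change 3.85 ± 0.96, adjusted p = 0.014; 0.051 without control 2), with log2 changes of 4.75 without control 3 and 3.28 without control 4. Tcf15, a bHLH factor of somites and vessels, had a log2 change of −2.50 ± 0.43 (adjusted p = 0.00364; 0.0551 with the muscle covariate). Hand1 and Scrt1 were too scarce to be tested.

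The bHLH partners and inhibitors of Twist proteins showed small changes. Of 7 tested, 3 rose and none fell (0 lower also with DESeq2, limma-voom or at library totals). The E protein genes Tcf12 (log2 change 0.87 ± 0.21, adjusted p = 0.0129) and Tcf4 (0.68 ± 0.21, adjusted p = 0.0292) rose, and so did the inhibitor Id2 (0.90 ± 0.29, adjusted p = 0.0351), but all 3 had negative values with fibroblast scaling (−0.53, −0.70 and −0.48), where 0 of the list were higher and 5 lower. Without control 3, control 4 or MIA 2, and with the muscle covariate, Tcf12 alone was called. Tcf4 was also uncalled without control 2 or MIA 3 (adjusted p at most 0.118 without any 1 library), and Id2 without MIA 1 or MIA 4 (at most 0.13).

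Among 12 tested co-repressors and regulators of Snail and Zeb proteins, 2 rose and 1 fell. Ctbp1, a co-repressor bound by Zeb proteins, fell from 275.0, 290.5 and 303.2 CPM in controls to 177.2, 156.0, 146.4 and 194.9 CPM in MIA 1 to 4 (log2 change −0.78 ± 0.18, adjusted p = 0.0117). The histone deacetylase gene Hdac1 (0.95 ± 0.29, adjusted p = 0.0311) and the co-repressor gene Rcor1 (0.76 ± 0.24, adjusted p = 0.0344) rose, although both changed sign with fibroblast scaling (−0.47 and −0.68). With library totals 7 of this list were higher and 0 lower in edgeR, Ctbp1 having an adjusted p of 0.157, and with the muscle covariate 0 were called. Rcor1 kept its call only without MIA 3 among the left-out libraries, and Hdac1 lost it without control 3, control 4, MIA 1 or MIA 4 (adjusted p at most 0.125 and 0.126).

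Of 8 Runx partners, 1 rose and 2 fell (4 higher and 2 lower with library totals, 0 higher and 5 lower with fibroblast scaling in edgeR). Tle1, a Groucho-type co-repressor, fell by 2.10 ± 0.25 (log2, adjusted p = 0.00116), from 52.5 to 61.5 CPM in controls to 9.19 to 18.5 CPM in MIA rats. Cbfa2t3, a co-repressor of blood cells and other tissues, fell by 2.0 ± 0.37 (adjusted p = 0.00459). With the muscle covariate the log2 changes were smaller, −1.71 for Tle1 (edgeR adjusted p = 0.014) and −1.19 for Cbfa2t3 (0.0496, just under the threshold). Cbfb, the common partner of all Runx proteins, was at 76.4 to 107.0 CPM in MIA rats and 95.3 to 129.5 CPM in controls. It was not called (log2 change −0.30 ± 0.19, adjusted p = 0.231) and was picked with its value known.

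Of 20 other limb and connective tissue transcription factors tested, 5 rose and 3 fell. These counts are near the shares over all tested genes, 21.3% higher and 19.6% lower. Their median log2 change was 0.15 (8 higher and 3 lower with library totals, 1 higher and 12 lower with fibroblast scaling). Tbx15, a T-box factor of limb and skeletal mesenchyme, fell by 1.43 ± 0.19 (adjusted p = 0.00159), from 52.9, 81.2 and 76.1 CPM in control 2 to 4 to 29.6, 21.6, 27.4 and 25.1 CPM in MIA 1 to 4. With the muscle covariate it stayed called, at −1.21 (adjusted p = 0.0216). Meox1, a homeobox factor of somites and activated fibroblasts picked with its value known, was at 5.12, 1.23 and 1.47 CPM in control 2 to 4 and at 16.6 to 18.5 CPM in all MIA rats (log2 change 2.75 ± 0.48, adjusted p = 0.00371).

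**Figure D4:**
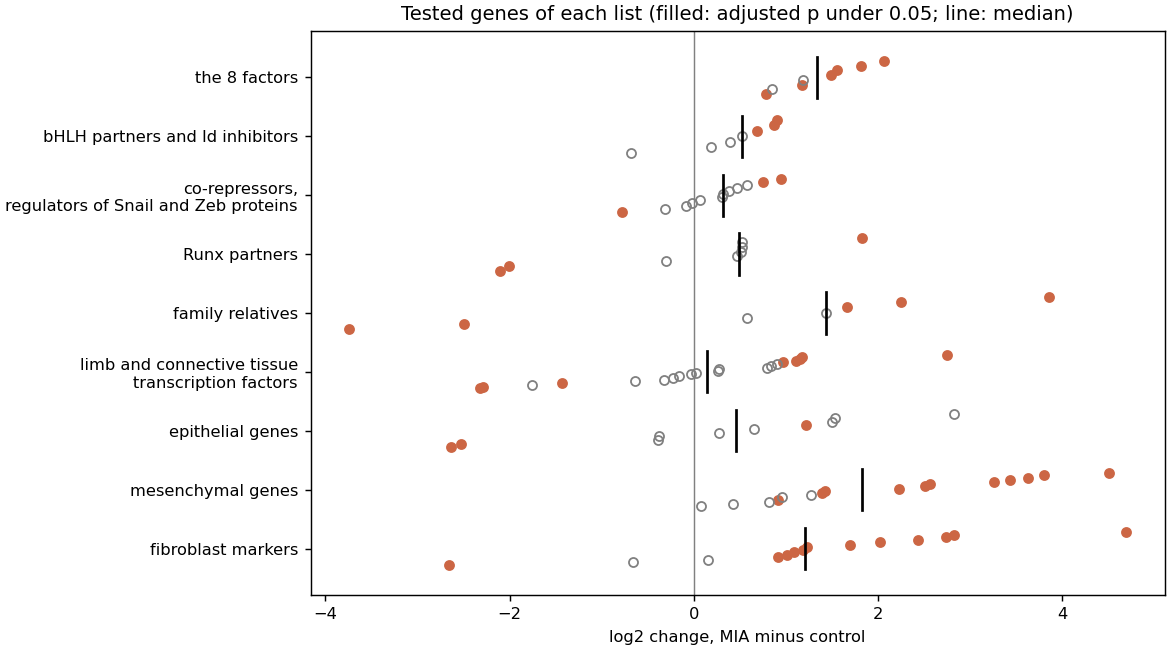
Log2 change between MIA and control (horizontal axis) of each tested gene in the lists on the vertical axis; filled points passed an adjusted p under 0.05, open points did not, and black lines are medians. All 8 factors lie right of 0 with this scaling, as do the 16 mesenchymal genes, while the other pathway lists lie on both sides; with fibroblast scaling Twist1, Twist2, Zeb1 and Zeb2 lie left of 0.

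Epithelial genes, the class that such repressors act on, were mostly scarce in both groups. Of 20 epithelial genes 10 were abundant enough to test, of which 1 rose and 2 fell. Cdh1, picked with its value known, was at 0.56, 0.79 and 0.82 CPM in control 2 to 4 and at 2.16, 0.57, 4.66 and 1.003 CPM in MIA 1 to 4, and it was not called (log2 change 1.53 ± 0.73, adjusted p = 0.126). Ovol1, an epithelial transcription factor, fell by 2.64 ± 0.42 (adjusted p = 0.00267), and Crb3, a polarity protein, by 2.53 ± 0.65 (adjusted p = 0.0159). In controls Ovol1 was not scarce beside the factors, at 10.1, 8.28 and 10.9 CPM. It was at 0.96, 0.83, 1.95 and 2.48 CPM in MIA 1 to 4. The tight junction gene Tjp3 rose by 1.21 ± 0.40 (adjusted p = 0.0414) but was at −0.15 with fibroblast scaling. Without control 3 or control 4 only Ovol1 of the list was called. Tjp3 lost its call without any library other than MIA 4, and Crb3 had a log2 change of −1.26 with the muscle covariate (adjusted p = 0.31) and of −3.21 without MIA 3.

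Of 16 genes used as mesenchymal markers 11 rose and none fell (0 also with DESeq2 and limma-voom; 7 higher and 2 lower with fibroblast scaling). Mmp14, a membrane-bound matrix protease, was 10.8-fold higher (log2 change 3.43 ± 0.29, adjusted p = 0.000735), and Tnc, the matrix protein tenascin C, 12.4-fold higher (3.63 ± 0.42, adjusted p = 0.00113). The N-cadherin gene Cdh2, picked with its value known, was at 3.15, 1.23 and 1.88 CPM in controls and at 7.37, 24.7, 7.58 and 8.55 CPM in MIA 1 to 4 (log2 change 2.51 ± 0.57, adjusted p = 0.00997). The mesenchymal genes had a median log2 change of 1.83 and the fibroblast markers of 1.21, beside 1.34 for the 8 factors.

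**Figure D5:**
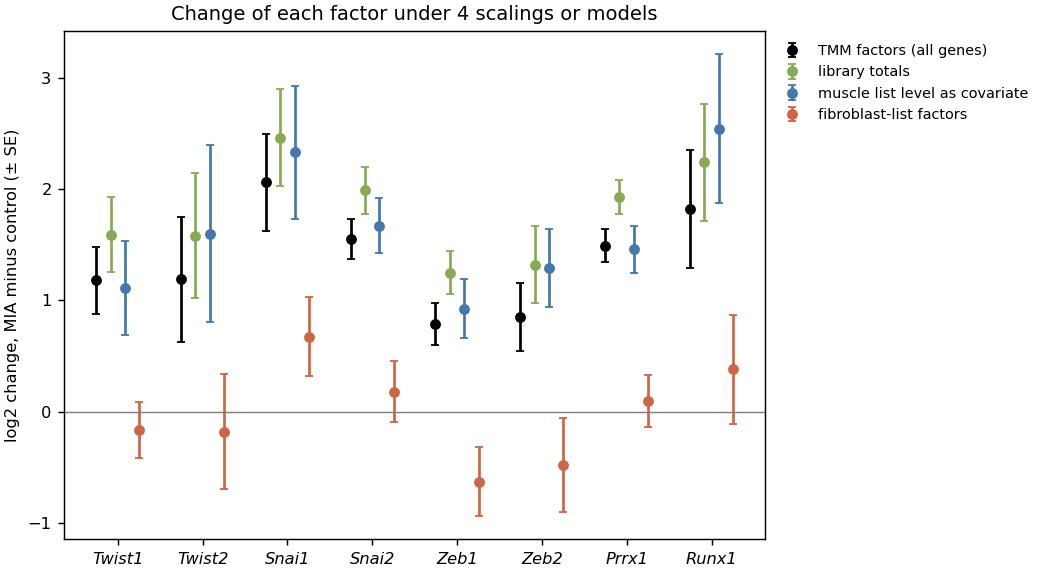
Log2 change ± SE between MIA and control of each factor (vertical axis) with TMM factors, library totals, the muscle covariate, and factors from 14 fibroblast markers. The first 3 sets lie above 0 for all 8 genes; the last set lies from −0.63 for Zeb1 to 0.67 for Snai1, on both sides of 0.

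Scaling moved the median of all genes along with the factors. The median log2 change of all tested genes was 0.07 with TMM factors, 0.51 with library totals and −1.32 with fibroblast scaling. Relative to that median, the median of the 8 factors was 1.27, 1.25 and 1.29. Relative to the median fibroblast marker it was 0.13, 0.13 and 0.18: Snai1 was 0.85, Runx1 0.61, Snai2 0.34 and Prrx1 0.28 above that marker's change with TMM factors, Twist1 and Twist2 were at −0.03 and −0.02 (0.05 and 0.03 with fibroblast scaling), and Zeb2 and Zeb1 were at −0.36 and −0.42. With the muscle covariate the median of the 8 was 0.51 above the median fibroblast marker, with Zeb2 at 0.27, Twist2 at 0.57 and Zeb1 at −0.10. With the muscle covariate 6 of the 8 were called, Zeb2 in place of Twist1.

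The genes whose profile over the 7 libraries was nearest to each factor, by root mean square (RMS) difference of log2 CPM after centring, differed from factor to factor. Nearest to Prrx1 were Mfhas1 (RMS 0.09) and Fkbp14, an endoplasmic reticulum enzyme of collagen folding (0.11), and nearest to Snai2 were Carhsp1 (0.12) and Trim59 (0.12). Nearest to Zeb1 was Tcf12 (0.10), the E protein gene described above, followed by the magnesium transporter gene Nipa2 (0.11). Runx1 was nearest to Inhbb, an activin subunit (0.21), and to Hspa5, the main chaperone of the endoplasmic reticulum (0.25). Inhbb was at 5.49 to 6.66 CPM in controls and at 30.2, 9.0, 12.2 and 33.2 CPM in MIA 1 to 4, so MIA 1 and MIA 4 were high for both genes. Twist2 was nearest to Sfrp1, a secreted Wnt antagonist (0.21), and Cdca7 (0.22), Snai1 to the vasopressin receptor gene Avpr1a (0.22) and the replication kinase gene Cdc7 (0.23), Twist1 to Gas2l1 (0.15) and Lrrcc1 (0.18), and Zeb2 to Zfp799 (0.12) and Socs4 (0.13). The median RMS difference from a factor over 11734 genes lay between 0.63 for Zeb1 and 1.17 for Snai1. These are descriptions over 7 libraries in 2 groups, and much of each profile is the difference between the groups.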

How the data were processed

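Synovium of 7 rats, 3 untreated and 4 with MIA, was sequenced as 1 library per rat from 1.5 µg of total RNA; groups and replicate numbers are the labels' own, and nothing more is stated on whether the rats were handled apart. Tools listed without a role in the submitters' processing notes are HTSeq 0.11.2, HISAT2 and DESeq2 1.26.0, with build Rnor_6.0. The strand setting is not given in sources used here. Reads of a gene and of an antisense partner cannot be told apart. The deposited table gives whole-number counts, per the file headers, and FPKM, per the file headers; the deposited FPKM equal counts per gene length and column total for all 18593 genes that could be checked (tolerance 1e-09).

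The main test used edgeR 4.0.16 under R 4.3.3: 14054 genes passed filterByExpr, TMM factors were 0.801 to 0.902 (control) and 1.06 to 1.23 (MIA), and the quasi-likelihood test was adjusted by Benjamini-Hochberg over all genes tested, with calls under 0.05. The SE of a log2 change is its size divided by the square root of F. The common biological coefficient of variation was 36.7%. The fit was tested on simulated data. Ratios were tested with exact permutations in scipy 1.17.1. Promoter letters are RefSeq's (GRCr8); no other coordinates are given. The lists, 7 of pathways and 11 of cell types, held 201 different genes (Ddr2 and Acta2 are each in a pathway and a marker list), of which 12 had no line under that symbol.

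The factors and lists were chosen with earlier results of these data known, so no count over a list is independent support. Named were the 8 factors, the 2 genes of smallest p in each pathway list (every called gene where 5 or fewer were called), the partners in the ratios and the 2 nearest genes by RMS among those reaching 1 FPKM on average in either group; others are marked as picked with their values known. A gene that this rule names is not reported here. Alternatives were other scalings (median of ratios, library totals, without muscle, blood and mitochondrial genes, fibroblast markers), DESeq2 1.42.0, limma-voom and limma 3.58.1 on log2(FPKM + 1) or log2(FPKM + 0.1), no filter and a filter of 10 CPM in 3 libraries, a replicate block, a muscle covariate and leaving out each library.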

Additional observations from a re-analysis of the deposited data

Results flagged for a closer look

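In MIA 2, Mmp14 stood at 1203 CPM, apart from the other MIA libraries, which lay between 794.5 and 840.6 CPM; its gap to the nearest of them was 0.887 of the group's range, above Dixon's 95% limit for 4 samples. Cdh2 stood at 24.7 CPM in the same library, with 7.365 to 8.55 CPM in the others. The summed neutrophil markers stood at 581.9 CPM in MIA 3, with 25.0 to 52.6 CPM in the others, and the summed endothelial markers at 1485.0 CPM in MIA 4, with 871.0 to 962.2 CPM in the others. These were 4 of 64 groups of 4 values examined (named genes, ratios and marker lists in MIA libraries), and chance alone flags about 1 group in 20. No value of the 8 factors or of the 5 ratios met the limit. MIA 2 also had the lowest muscle share (0.0416%) and the highest summed chondrocyte markers, 3803.9 CPM, where the other 3 lay between 251.2 and 1838.2 CPM; their part in the Mmp14 and Cdh2 values was not tested.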

How the results depend on the processing

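All 8 factors kept a positive log2 change under every alternative that tested them (Twist2 did not pass the filter of 10 CPM) except fibroblast scaling, where Twist1 was at −0.16, Twist2 at −0.18, Zeb1 at −0.63 and Zeb2 at −0.48; there 0 factors were called, against 6, while 9977 of all genes were called, 511 higher and 9466 lower. The same scaling turned Tcf12 (−0.53), Tcf4 (−0.70), Id2 (−0.48), Hdac1 (−0.47), Rcor1 (−0.68), Tjp3 (−0.15), Gas2l1 (−0.28), Lrrcc1 (−0.15), Nipa2 (−0.64), Zfp799 (−0.41) and Socs4 (−0.27); it takes median-of-ratios factors from 14 markers, of which 11 rose with TMM factors. Library totals gave 78.1% of calls higher, against 52.1%, and limma on log2(FPKM + 1) 75.5%. Called factors numbered 4 to 7 with 1 library left out (4 without control 3 or control 4), and 0 were lower in each case; for all genes called, the count was 3399 to 5724, against 5751 (3628 without control 3 and 3399 without control 4), and 2989 with the muscle covariate. Snai3 was at a log2 change of −2.78 without control 3 and −4.34 without MIA 3, the ends of its range.

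Counts of called list genes moved as follows, with fibroblast scaling, library totals, limma on FPKM (pseudocount 1 or 0.1) and the muscle covariate in turn: bHLH partners 5, 5, 5 and 1 (main 3); co-repressors 10, 7, 7 and 0 (main 3, and 1 with the replicate block); Runx partners 5, 6 and 5 (main 3). Family relatives had 3 with fibroblast scaling, 2 with the muscle covariate and 2 with the filter of 10 CPM (main 5), limb factors 13 with fibroblast scaling and 4 with the covariate (main 8), and epithelial genes 5 with DESeq2 and 0 with the filter of 10 CPM, (main 3). The cause of the other moves was not tested. With 1 library left out the counts were 1 to 3, 1 to 4, 3 to 4, 4 to 6, 6 to 10 and 1 to 3 in this order, and 10 to 11 for mesenchymal genes (main 11).

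Ratio differences without 1 library lay between −0.03 and 0.59 (Twist1 to Twist2), 0.15 and 0.75 (Snai1 to Snai2), −0.11 and 0.24 (Zeb1 to Zeb2), −0.58 and 0.04 (Prrx1 to Prrx2) and −1.05 and −0.25 (Runx1 to Runx2). With 6 libraries no exact p can reach the threshold, nor could it with all 7. Same-numbered libraries correlated at 0.245, 0.0967 and 0.0425 in their deviations from the group means, and control 4 correlated best with MIA 3 (0.186), so the numbers are not shown to pair the rats. With the replicate number as a block, 6 factors were called and 4555 of all genes. Zeb2 gained its call (adjusted p = 0.0302) and Runx1 lost it (0.136). There is no control 1, so MIA 1 had a block of its own and added nothing to the group difference. Leaving out MIA 1 without a block gave edgeR adjusted p of 0.0392 for Zeb2 and 0.0604 for Runx1. Twist2 had the lowest counts of the factors, 15 to 125 per library.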
